A study of Mus musculus with 6 samples.

Results

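The DNAJ proteins, also called HSP40 or J proteins, are the co-chaperones of the HSP70 chaperones. Their members were taken as the protein-coding genes of the deposited table whose symbol reads Dnaj, then a, b or c, then a digit. This gave 45 genes of 54532 in the table (22046 of them protein-coding), and 2 rows with such a symbol were left out as processed pseudogenes. The samples were cultures of wild-type granulosa cells from mouse ovary, the follicle cells that enclose and feed the oocyte, in medium with serum. One group of 3 libraries received no treatment and the other group of 3 received cyclophosphamide, an alkylating chemotherapy drug, for 24 h. The treatment label of the second group names an injection into the abdomen, while the treatment protocol and the design describe dosing of cultured cells, which is followed here. Cyclophosphamide is known to need activation by liver enzymes, and how much of it was active in these cultures was not measured here. Nothing in the labels says whether replicates came from separate cultures or animals, so the p-values below measure the spread between these libraries, which may be technical.

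A J protein binds an unfolded client, brings it to HSP70 and, through its J domain, makes HSP70 split ATP and close on the client. Exchange factors then release ADP, and the client leaves to fold, to be handed to HSP90 or to be degraded. Class A members resemble bacterial DnaJ along their whole length, class B members share its J domain and a glycine-rich region, and class C members share the J domain alone and are tied to particular sites or tasks. Because HSP70 itself has few forms, the J proteins largely set where and on what it works. Granulosa cells make large amounts of secreted peptide hormone and steroid, so the members of the endoplasmic reticulum (ER) and the mitochondria are described beside those of the cytosol. Members were placed in compartments from textbook knowledge, and 3 that could not be placed with confidence are kept apart.

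Depth ranged from 16458385 to 17607586 reads per library. The libraries of a group correlated at 0.987 or higher on the log2 scale, against 0.909 at most between the groups. Of 11 granulosa markers 9 were measured, and all 9 fell with the drug. Their summed level ran from 2793 to 2961 FPKM (a read count scaled by gene length and library size) in untreated and from 980 to 1280 in treated libraries. Cyp19a1, the aromatase gene, had 4 reads and Amh had 38 in all libraries. Summed oocyte markers ran from 0.936 to 1.36 FPKM in untreated and from 3.33 to 4.95 in treated libraries (2 of 3 tested rose, Figla at 0). The macrophage list ran from 7.62 to 8.58 and from 11.6 to 15.5 FPKM (3 of 4 tested rose, 1 fell), and Ptprc and Adgre1 had 16 and 4 reads in all. Csf1r rose from a mean of 1.25 FPKM in untreated to 5.04 in treated libraries, Cd14 from 1.40 to 3.73 and Cd68 from 1.57 to 3.43. Lyz2 fell from 2.81 to 1.51 FPKM. Endothelial markers ran from 0.744 to 1.01 and from 2.09 to 2.68 FPKM (1 of 3 tested rose, Cldn5 at 0). That marker was Esam (mean 0.261 FPKM in untreated and 1.80 in treated libraries), while Tek and Cdh5 were not called. The theca and stroma list went from between 434 and 462 to between 80.4 and 193 FPKM (3 of 5 tested fell), and Cyp11a1 made up 93.7% of the untreated sum (424 FPKM, and 122 in treated libraries). Smooth muscle went from between 82.8 and 93.9 to between 13.1 and 24.0 (4 of 6 fell, 1 rose), of which Acta2 made up 94.6% before. Without Acta2 its sum was 4.30 to 5.29 in untreated and 7.48 to 8.64 FPKM in treated libraries. The marker that rose was Notch3 (mean 1.75 FPKM in untreated and 6.67 in treated libraries), while Myh11, Tagln and Cnn1 fell. Surface epithelium went from between 106 and 120 to between 49.97 and 73.2 (4 of 5 fell). Krt18 made up 53.1% of its untreated sum (mean 60.7 FPKM, and 35.7 in treated libraries). Krt8 stood at a mean of 51.1 FPKM before and 23.0 after. Krt7, Krt19, Upk3b, Msln and Lrrn4 had untreated means from 0.0916 to 0.889 FPKM. The part of such other cell types in the results below was not tested. In bulk libraries, fewer cells of a type and less RNA per cell cannot be told apart.

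Most of the family was expressed and most of it changed, by modest amounts. In untreated cells 19 members lay at 10 FPKM or more, 19 at 1 to 10 and 7 below 1. A total of 39 members passed the filter on low values (10 or more reads in 3 or more libraries), and of these 17 rose and 12 fell with cyclophosphamide (limma on log2(FPKM + 0.1), Benjamini-Hochberg adjusted p under 0.05 over 14751 genes). The 29 called members are 74.4% of those tested, near the 69.3% of all genes tested that were called (33.3% higher, 35.9% lower) and the 71.9% of protein-coding genes, so the count says little about the family. The sizes were small: 2 members rose at least 2-fold and the largest called fall was -0.71 on the log2 scale, where 26.6% of all genes were called and changed at least 2-fold (10.0% higher and 16.6% lower). The median log2 fold change was 0.11 over the members and -0.02 over all genes tested, and the median size without sign was 0.50 and 0.57. The groups did not overlap for 29 of the 39 members, against 73.4% of all genes.

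**Figure D1:**
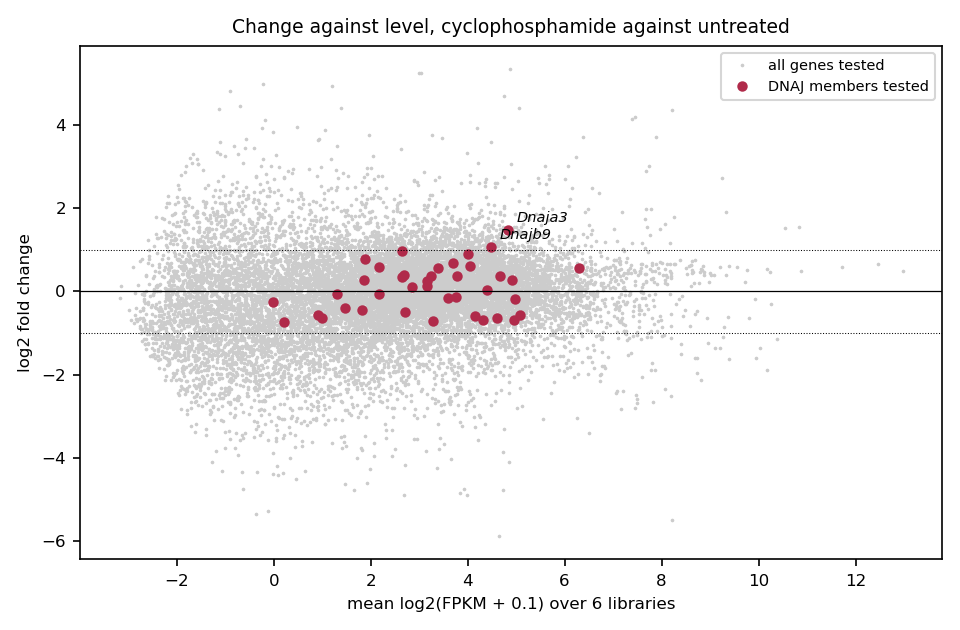
Log2 fold change (vertical axis) against mean log2(FPKM + 0.1) over 6 libraries (horizontal axis) for 14751 genes tested (grey) and 39 DNAJ members (red), with dotted lines at 2-fold. Dnaja3 and Dnajb9 are the members above the upper line, and no member lies below the lower one.

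**Figure D2:**
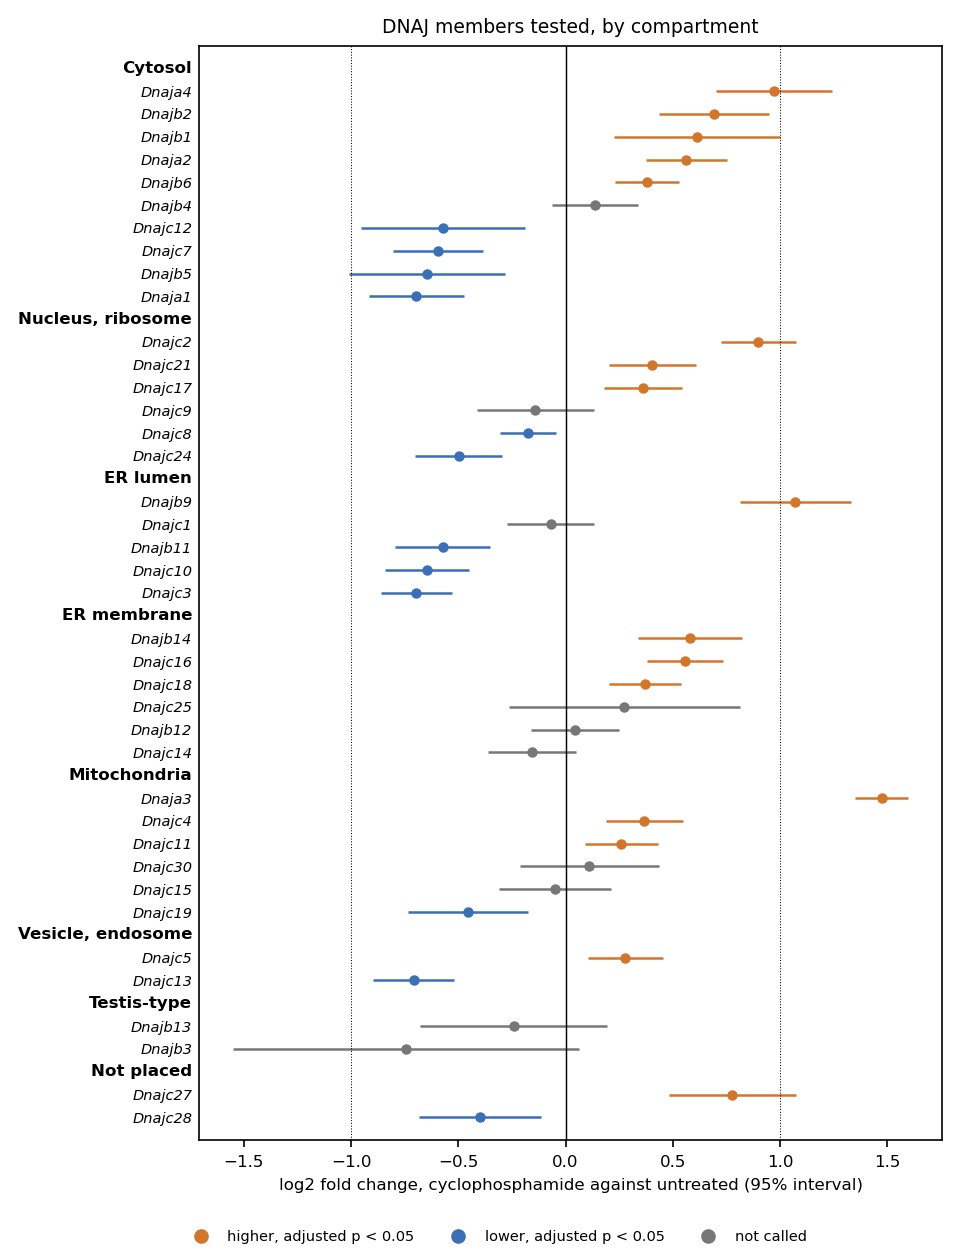
Log2 fold change with 95% interval for the 39 members tested, grouped by compartment and coloured by the call. Called members lie on both sides of 0 in the cytosol, the ER lumen and the mitochondria, while the 3 called members of the ER membrane are all higher.

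The order of the members by level changed at the top. Dnaja2 was first in both groups. In untreated cells Dnajb11 (40.9 ± 1.19 FPKM, SD, n = 3), Dnajc3 (39.4 ± 2.22) and Dnajc8 (33.5 ± 1.16) followed, with the first 2 of these closer than their spread. In treated cells Dnaja3 was next (47.6 ± 0.62), followed by Dnajc5 (33.3 ± 3.12) and Dnajb9 (32.5 ± 4.73), which did not differ beyond their spread. Among the 10 members highest in untreated cells 3 rose and 6 fell, while among the other 29 tested 14 rose and 6 fell. This ranking used the untreated values that also enter the fold change, and no such count was made over all genes. The split is therefore a description and not a trait of abundant members. Summed over the 45 members, the family stood at 531, 536 and 550 FPKM in untreated and at 632, 587 and 599 in treated libraries.

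The cytosolic class A members moved apart. Dnaja1, Dnaja2 and Dnaja4 are the general cytosolic J proteins closest to bacterial DnaJ, with a farnesylated tail. Dnaja2, the most abundant, stood at 64.4, 63.1 and 65.3 FPKM in untreated and at 105, 86.0 and 94.8 in treated libraries. Its rise was 0.56 ± 0.08 on the log2 scale (SE; adjusted p = 0.00044 in limma), and the treated libraries all lay above the untreated ones. Dnaja4 rose most within the cytosol, from 3.75, 4.80 and 4.66 to 9.53, 8.32 and 8.29 FPKM (log2 fold change 0.97 ± 0.12, adjusted p = 0.00015 in limma). Its exons share 44.0% of their bases with Wdr61 on the opposite strand, which also rose (0.70 ± 0.06), and without a stated strand setting the reads of the pair cannot be told apart.

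Dnaja1 went the other way, from 23.1, 25.7 and 27.1 FPKM in untreated to 17.3, 15.6 and 14.0 in treated libraries. Its log2 fold change was -0.70 ± 0.10 (limma, adjusted p = 0.00031), with no overlap between the groups. It shares 7.05% of its exon bases with Smu1 on the opposite strand, which has 10508 reads against 18044 and rose (0.33 ± 0.07). As a share of the summed FPKM of these 3 genes, a measure that does not depend on the scaling between libraries, Dnaja1 made up 25.3%, 27.5% and 27.9% in untreated and 13.1%, 14.2% and 11.9% in treated libraries. Dnaja2 made up 67.3% to 70.5% before and 78.2% to 81.0% after. The level of Dnaja2 over that of Dnaja1 was 2.55 ± 0.20 in untreated and 6.13 ± 0.64 in treated libraries (SD, n = 3).

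Of the 5 class B members of the cytosol, 3 rose, 1 fell and 1 was not called. Dnajb1, the heat-inducible HSP40 that works with HSP70 in refolding and in taking protein aggregates apart, stood at 12.4, 13.7 and 14.0 FPKM in untreated and at 26.4, 15.8 and 20.6 in treated libraries. The treated values were all above the untreated ones but spread widely, with replicate 1 the highest (log2 fold change 0.61 ± 0.17, limma, adjusted p = 0.011). Dnajb2, a neuron-enriched form that sorts ubiquitinated clients, rose by 0.69 ± 0.11, and Dnajb6, which suppresses polyglutamine aggregation, by 0.38 ± 0.06. Dnajb4, a close relative of Dnajb1, was not called (0.14, 95% interval -0.06 to 0.34), and it was called higher at adjusted p = 0.048 with scaling by the upper quartile over all genes with a read. Dnajb5, another relative of Dnajb1, was lower at -0.65 ± 0.16. Of the class C members there, Dnajc7, a tetratricopeptide co-chaperone that binds both HSP70 and HSP90, fell by 0.60 on the log2 scale, and Dnajc12, which assists aromatic amino acid hydroxylases, fell by 0.57. Dnajc7 shares 3.17% of its exon bases with Cnp and 5.90% with Nkiras2, both on the opposite strand. Cnp also fell (-1.82 ± 0.12), while Nkiras2, with 6054 reads against 1339 for Cnp, rose (0.38 ± 0.08). The call on Dnajc12 was lost without untreated replicate 3 (log2 fold change -0.49, adjusted p = 0.059). Over the cytosol, 5 of 10 members rose and 4 fell, with a median of 0.26.

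**Figure D3:**
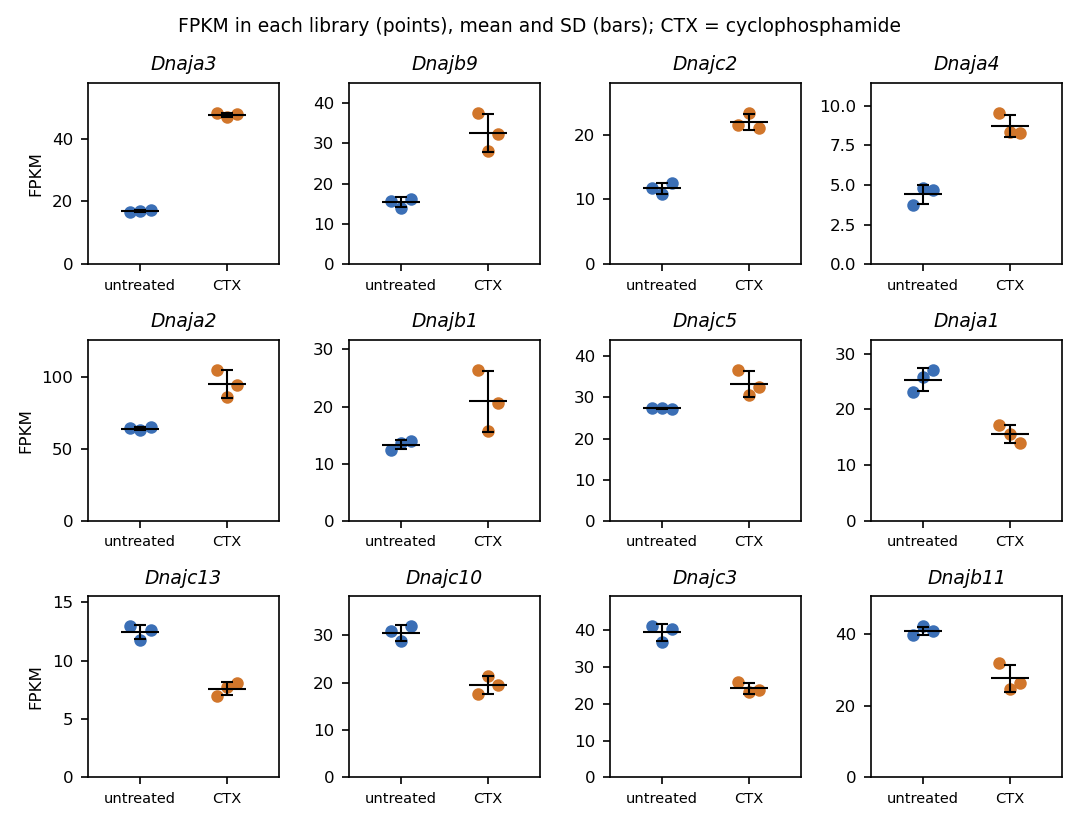
FPKM in each library (points) with mean and SD (black bars, n = 3 per group) for 12 members, each on its own linear axis from 0. The 7 members from Dnaja3 to Dnajc5 lie higher in the treated libraries (CTX, cyclophosphamide) and the 5 from Dnaja1 to Dnajb11 lie lower, without overlap.

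Of the 5 members of the ER lumen, 1 rose and 3 fell. The J proteins of the lumen serve BiP, the HSP70 of the ER, encoded by Hspa5. Dnajb9 (ERdj4), which helps extract misfolded proteins for degradation and holds the stress sensor IRE1 in check, stood at 15.8, 14.0 and 16.3 FPKM in untreated and at 37.4, 28.0 and 32.2 in treated libraries. It rose by 1.07 ± 0.11 on the log2 scale, or 2.10-fold (limma, adjusted p = 7e-05). Dnajb11 (ERdj3), which binds nascent chains and is also secreted, fell from 39.8, 42.2 and 40.7 to 31.8, 24.7 and 26.3 FPKM (log2 fold change -0.57 ± 0.10, adjusted p = 0.00093 in limma). Each treated library lay below each untreated one.

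Dnajc3 (P58IPK), a BiP co-chaperone also known as an inhibitor of eIF2-alpha kinases, stood at 41.1, 36.9 and 40.2 FPKM in untreated and at 26.0, 23.1 and 23.8 in treated libraries. Its log2 fold change was -0.70 ± 0.07 (limma, adjusted p = 6.5e-05). Dnajc10 (ERdj5), a disulfide reductase of ER-associated degradation, went from 31.0, 28.7 and 31.9 to 17.7, 21.5 and 19.4 FPKM (log2 fold change -0.65 ± 0.08, adjusted p = 0.00024 in limma). Neither had overlapping groups. Dnajc1 (ERdj1), a membrane protein with a luminal J domain that sits near translating ribosomes, was not called, with a log2 fold change of -0.07 (95% interval -0.27 to 0.13) whose sign was positive with scaling by the upper quartile over all genes with a read. It shares 6.43% of its exon bases with Mllt10 on the opposite strand, which has 5310 reads against 5220 and rose (0.26 ± 0.07).

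The make-up of the luminal set therefore differed between the groups. Dnajb9 held 11.95%, 11.1% and 12.2% of the summed FPKM of the 5 luminal members in untreated and 31.9%, 27.6% and 30.4% in treated libraries. The sum itself went from 132, 126 and 134 FPKM to 117, 102 and 106, without overlap. Hspa5 stood at 236, 242 and 254 FPKM in untreated and at 317, 289 and 278 in treated libraries. It was called higher by 0.27 ± 0.09 on the log2 scale (adjusted p = 0.027 in limma), a call that was lost without any 1 of 4 of the libraries (adjusted p up to 0.095) and with scaling by the upper quartile of the genes tested (0.067). The level of Hspa5 over the summed luminal J proteins was 1.87 ± 0.07 before and 2.73 ± 0.11 after (SD, n = 3), with no overlap.

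**Figure D4:**
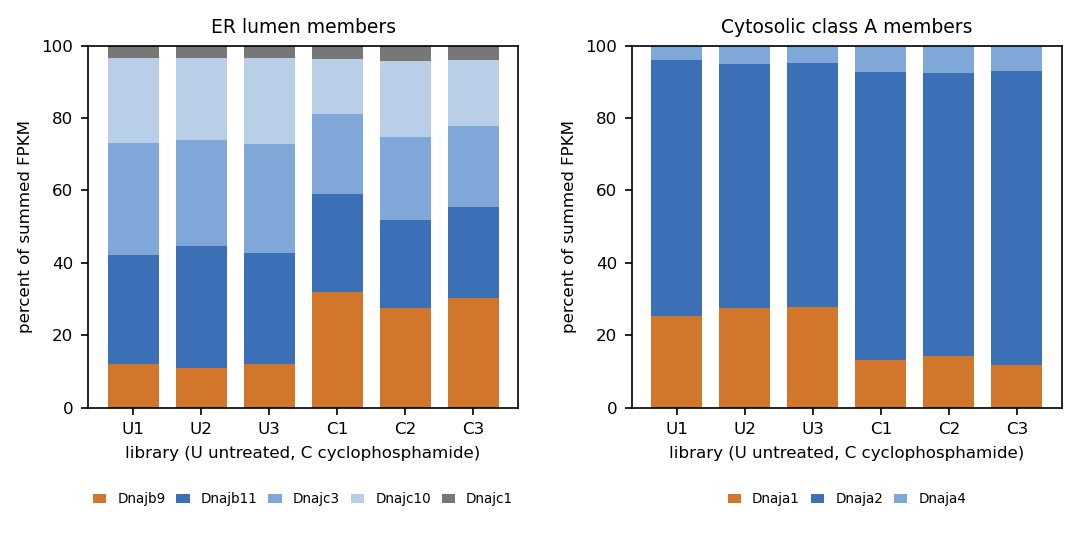
Share of summed FPKM by member in each library (U untreated, C cyclophosphamide) for the 5 ER lumen members (left) and the 3 cytosolic class A members (right). Dnajb9 is at 11.1% to 12.2% in untreated and at 27.6% to 31.9% in treated libraries, and Dnaja1 at 25.3% to 27.9% and at 11.9% to 14.2%.

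Upstream sequences of luminal members are shown because genes of this set are known targets of the ER stress factors ATF6 and XBP1, which act through the ER stress response element (CCAAT and CCACG with 9 bases between), and because members of the set moved in both directions. Sequences come from RefSeq on GRCm38.p6, read 5′ to 3′ on the strand of the gene up to the base before the transcript start. Capitals mark the whole element and its outer parts, CCAAT and CCACG, on either strand. Bases that lie in an annotated exon are left out, which shortens Dnajb11 to 175 bases and leaves out Dnajb9, whose 250 bases all lie in annotated exons. Dnajc1, which was not called, is not shown either, so the luminal sequences shown all belong to members that fell.
Dnajc3, chr14:118937682-118937931, plus strand: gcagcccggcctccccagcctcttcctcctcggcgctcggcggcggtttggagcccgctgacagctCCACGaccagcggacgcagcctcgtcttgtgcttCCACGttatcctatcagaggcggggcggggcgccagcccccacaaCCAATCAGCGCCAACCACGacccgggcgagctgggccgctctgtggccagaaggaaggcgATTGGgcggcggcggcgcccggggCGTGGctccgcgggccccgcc
Dnajb11, chr16:22857670-22857844, plus strand: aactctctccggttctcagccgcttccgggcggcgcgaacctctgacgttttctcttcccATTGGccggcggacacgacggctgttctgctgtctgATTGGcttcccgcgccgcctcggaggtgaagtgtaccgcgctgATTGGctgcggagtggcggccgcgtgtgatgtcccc
Dnajc10, chr2:80315216-80315465, plus strand: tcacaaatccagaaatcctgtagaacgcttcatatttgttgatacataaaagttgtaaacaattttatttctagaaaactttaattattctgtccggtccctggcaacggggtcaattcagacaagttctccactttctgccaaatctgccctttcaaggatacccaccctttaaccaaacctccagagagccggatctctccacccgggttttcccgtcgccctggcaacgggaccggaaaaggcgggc

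The whole element was found in Dnajc3, which fell, and in 1 of the 37 members with a promoter window (250 bases before to 50 after the start), against 0.137% of the 27025 genes in the RefSeq table. Dnajc3 held 2 copies of CCAAT and 4 of CCACG in its 250 bases, counting those of the element. Dnajb11, which fell too, held 4 copies of CCAAT in its 250 bases and 0 of CCACG, and Dnajc10 held 0 of either. Dnajb9, which rose, held 1 of CCAAT and 2 of CCACG at another spacing. In the windows from 250 bases before to 50 after the start, CCAAT alone was present in 15 of the 37 members and in 41.1% of all genes. CCACG alone was present there in 24 of the 37 members and in 35.5% of all genes. Unlike the copy counts above, these windows include bases after the start, where Dnajb11 held both CCAAT and CCACG. The heat shock element (GAA, TTC and GAA, each pair with 2 bases between, both strands) was found in 1 member, Dnajb6 (GAATCTTCCGGAA on chromosome 5), against 0.662% of genes. The antioxidant response element (TGAC and GCA with 3 bases between) was found in 3 members, Dnajb1, Dnajc17 and Dnajc28, against 3.45% of genes, and the C/EBP-ATF response element (TGATGNAAT) in 0, against 1.08%. Those 3 members were called in both directions, Dnajb1 and Dnajc17 higher and Dnajc28 lower. A match is a description of letters and shows no binding.

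Members of the ER membrane rose or were not called. Dnajb14, which faces the cytosol and assists degradation from the ER together with its relative Dnajb12, stood at 3.78, 3.35 and 3.66 FPKM in untreated and at 4.90, 5.60 and 5.82 in treated libraries (log2 fold change 0.58 ± 0.10, limma, adjusted p = 0.0014). Dnajb12 was not called (0.04, 95% interval -0.16 to 0.25), and the level of Dnajb14 over that of Dnajb12 was 0.175 ± 0.019 before and 0.256 ± 0.009 after (SD, n = 3), without overlap. Dnajc16 (ERdj8) rose by 0.56 ± 0.08 and Dnajc18 by 0.37 ± 0.07. Dnajc14, known for binding newly made receptors, was not called (-0.16, 95% interval -0.36 to 0.05), and it was called lower at adjusted p = 0.044 with scaling by the upper quartile of the genes tested. It shares 17.0% of its exon bases with Ormdl2 on the opposite strand, which has 1097 reads against 8084 and fell (-0.37 ± 0.12). Dnajc25 was not called either, and its 0.27 rested on treated replicate 1 (5.83 FPKM, against 2.97 and 3.36), without which it was -0.01.

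In the mitochondria Dnaja3 changed more than any other member tested. Dnaja3 (Tid1), the class A J protein of the matrix, works with mortalin, the mitochondrial HSP70 encoded by Hspa9. It stood at 16.8, 17.0 and 17.4 FPKM in untreated and at 48.0, 46.9 and 47.9 in treated libraries, so the groups lay far apart and the replicates close together. Its log2 fold change was 1.47 ± 0.05, or 2.78-fold (limma, adjusted p = 6.4e-07). In the table, whose coordinates are read as GRCm38, the gene (ENSMUSG00000004069) lies on chromosome 16 from 4639989 to 4707695 on the plus strand. That model shares 4.09% of its exon bases with Vasn on the same strand and 3.91% with Coro7 on the other, and both of these genes fell (-0.51 ± 0.06 and -0.47 ± 0.16).

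Its upstream sequence is shown as that of the member that rose most, with the start that RefSeq gives inside the longer model of the table. Of the elements above it holds a single CCAAT, in capitals.
Dnaja3, chr16:4683820-4684069, plus strand: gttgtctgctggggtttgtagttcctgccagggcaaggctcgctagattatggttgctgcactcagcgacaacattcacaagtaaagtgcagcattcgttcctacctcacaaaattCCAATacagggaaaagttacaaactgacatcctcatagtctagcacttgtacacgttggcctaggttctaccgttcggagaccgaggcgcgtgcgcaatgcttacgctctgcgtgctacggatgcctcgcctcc

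Other mitochondrial members moved less. Dnajc19 (TIM14), which drives protein import at the inner membrane, fell from 3.65, 4.64 and 3.95 to 3.11, 2.98 and 2.73 FPKM (log2 fold change -0.45 ± 0.12, limma, adjusted p = 0.010). It shares 4.42% of its exon bases with Fxr1 on the opposite strand, a gene with more reads that rose (0.49 ± 0.07). Dnajc4 and Dnajc11, the latter a partner of the cristae-organising complex, rose by 0.37 ± 0.08 and 0.26 ± 0.07, and the call on Dnajc11 was lost with scaling by the upper quartile of the genes tested (0.18, adjusted p = 0.071). Dnajc15 (-0.05, 95% interval -0.31 to 0.21), a relative of Dnajc19, and Dnajc30 (0.11, 95% interval -0.21 to 0.43) were not called. Dnajc30 shares 26.25% of its exon bases with Bud23 on the opposite strand, which has 3710 reads against 1230 and rose (0.64 ± 0.09). The sign of Dnajc15 was positive with scaling by the upper quartile over all genes with a read. Mitochondrial members made up 9.07%, 9.65% and 9.45% of the family's summed FPKM in untreated and 13.6%, 14.9% and 14.1% in treated libraries. Without Dnaja3 the other 5 mitochondrial members made up 5.91%, 6.47% and 6.28% of the same sum before and 5.97%, 6.85% and 6.07% after, with overlapping groups. The share of the ER lumen went from between 23.5% and 24.9% to between 17.3% and 18.6%.

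Of the 6 members at the ribosome and in the nucleus, 3 rose and 2 fell. Dnajc2 (MPP11), which sits at the ribosome's exit tunnel with the HSP70 form Hspa14, stood at 11.8, 10.9 and 12.5 FPKM in untreated and at 21.5, 23.3 and 21.02 in treated libraries (log2 fold change 0.90 ± 0.08, limma, adjusted p = 2.2e-05). Dnajc21, which helps mature the large ribosomal subunit, rose by 0.40 ± 0.09, and Dnajc17, a splicing-linked nuclear protein, by 0.36 ± 0.08. Dnajc17 shares 8.26% of its exon bases with Zfyve19 on the opposite strand, which has 2592 reads against 827 and also rose (0.81 ± 0.09). Dnajc24 (DPH4), which acts in the diphthamide modification of elongation factor eEF2, fell from 7.42, 7.99 and 7.52 to 5.19, 5.09 and 5.88 FPKM (log2 fold change -0.50 ± 0.09, adjusted p = 0.0012 in limma).

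Dnajc8, a spliceosome-associated protein, stood at 34.8, 32.8 and 32.8 FPKM in untreated and at 29.6, 30.1 and 29.0 in treated libraries. Its small fall (log2 fold change -0.18 ± 0.06, limma, adjusted p = 0.023) was lost with scaling to total reads (adjusted p = 0.080), with the upper quartile over all genes with a read (-0.08, adjusted p = 0.23) and without untreated replicate 1, untreated replicate 3 or treated replicate 3 (up to 0.086). Dnajc9, a histone chaperone of dividing cells, was not called (-0.14, 95% interval -0.42 to 0.13), with treated values of 14.97, 10.9 and 12.5 FPKM, and without treated replicate 1 it was called lower (-0.26, adjusted p = 0.044).

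The 2 vesicle and endosome members tested moved in opposite directions. Dnajc5 (cysteine string protein), a palmitoylated guardian of secretory vesicles, stood at 27.3, 27.4 and 27.3 FPKM in untreated and at 36.7, 30.6 and 32.5 in treated libraries (log2 fold change 0.28 ± 0.08, limma, adjusted p = 0.011). Dnajc13 (RME-8), an endosomal J protein of retromer sorting and clathrin uncoating, fell from 12.9, 11.7 and 12.6 to 6.95, 7.73 and 8.06 FPKM (log2 fold change -0.71 ± 0.08, adjusted p = 0.00013 in limma). Its change was the largest fall among called members. The gene spans 112 kb. The correlation of log2 fold change with gene span was -0.16 (Spearman rho) across the 14751 genes tested and -0.02 among the 39 members (Pearson r -0.19 and 0.04), where genes are not independent replicates. The part of gene span in the fall of Dnajc13 was not tested.

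Of the members not placed in a compartment, Dnajc27, which pairs a RAB-like GTPase with a J domain, rose from 2.55, 3.24 and 2.43 to 4.94, 4.57 and 4.70 FPKM (log2 fold change 0.78 ± 0.13, limma, adjusted p = 0.00086). Dnajc28 fell from 3.04, 3.07 and 3.15 to 2.01, 2.54 and 2.44 FPKM (log2 fold change -0.40 ± 0.12, adjusted p = 0.020 in limma). The call on Dnajc28 was lost without untreated replicate 2 or untreated replicate 3 (adjusted p = 0.050 and 0.064) and with scaling by the upper quartile over all genes with a read (0.057).

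The members known from testis were low or absent. Dnajb3 (0.788 to 2.34 FPKM in untreated, 0.636 to 0.991 in treated libraries) and Dnajb13, a part of sperm tails and cilia (0.784 to 1.17 and 0.694 to 0.889), were tested and not called, with overlapping groups. Dnajb3 was called lower without untreated replicate 3 (log2 fold change -1.12, adjusted p = 0.0087). Dnajb13 shares 11.2% of its exon bases with Ucp2 on the other strand, which had 11265 reads against its 253. The 6 members below the filter were Dnajc6 (auxilin, 39 reads in all), Dnajc22 (24), Dnajb7 (6), Dnajb8 (2), Dnajc5b (0) and Dnajc5g (0). A count of 0 among 102081464 reads allows up to 3 reads, for counting error only. For Dnajc22, with 18 reads in untreated and 6 in treated libraries, and for the others a difference was not tested at this depth.

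Of the 10 HSP70 genes tested 5 rose and 4 fell, 5 of them at least 2-fold, with a median of -0.06 and a median size without sign of 1.08. Hspa9 stood at 136, 135 and 136 FPKM in untreated and at 378, 329 and 335 in treated libraries (log2 fold change 1.35 ± 0.09, limma, adjusted p = 5.7e-06). Its level over that of Dnaja3, its J protein, was 8.11, 7.90 and 7.81 in untreated and 7.88, 7.005 and 7.002 in treated libraries, so the groups overlapped in this ratio while Hspa9 rose 2.56-fold and Dnaja3 2.78-fold. Grpel2, an exchange factor of mortalin, rose from 6.63, 6.37 and 6.39 to 14.6, 13.5 and 13.8 FPKM (1.10 ± 0.07, limma, adjusted p = 5.5e-06). The other such factor, Grpel1, was not called (0.10, 95% interval -0.05 to 0.25), and Trap1, the mitochondrial HSP90, was lower at -0.37 ± 0.07 (adjusted p = 0.0020 in limma).

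The stress-inducible HSP70 genes of the cytosol rose and the constitutive Hspa8 was not called. Hspa2, another cytosolic HSP70, was lower at -0.80 ± 0.16 (limma, adjusted p = 0.0028). Hspa1a stood at 0.598, 0.463 and 0.598 FPKM in untreated and at 5.26, 1.43 and 3.32 in treated libraries (log2 fold change 2.22 ± 0.40, limma, adjusted p = 0.0015, and 1.38 with a pseudocount of 1). Hspa1b went from 2.10, 2.19 and 2.17 to 17.3, 5.18 and 10.7 FPKM (2.15 ± 0.37, adjusted p = 0.0010 in limma). The 2 genes are nearly identical in sequence, so how their reads divide is uncertain. Hspa8, the constitutive form, had 524, 475 and 499 FPKM in untreated and 516, 268 and 345 in treated libraries (-0.46 ± 0.22, limma, adjusted p = 0.094), and it was called lower without treated replicate 1 (-0.71, adjusted p = 0.0015), in limma-voom (0.029) and with scaling by the upper quartile of the genes tested (0.045).

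Hspa14, the ribosomal partner of Dnajc2, rose from 11.2, 10.3 and 10.4 to 21.3, 15.7 and 18.1 FPKM (0.77 ± 0.11, limma, adjusted p = 0.00037). The level of Hspa14 over that of Dnajc2 was 0.910 ± 0.068 before and 0.843 ± 0.159 after (SD, n = 3), with overlap. Hspa12a, a distant relative, had the smallest p among the HSP70 genes that fell (-1.89 ± 0.15, limma, adjusted p = 1.6e-05). Hspa12b had -1.97 ± 0.24, and with a pseudocount of 0.5 or 1 it was -1.22 or -0.84.

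Among 14 exchange factors 6 rose, 6 fell and 2 were not called, with a median of 0.06. Hsph1, the HSP110 of the cytosol, rose from 13.0, 13.3 and 13.8 to 31.2, 26.2 and 30.1 FPKM (1.12 ± 0.08, limma, adjusted p = 9.3e-06), and Bag3, which steers clients to autophagy, by 0.84 ± 0.12. In the ER both exchange factors of BiP fell, Sil1 by 0.57 (SE 0.07) and Hyou1 by 0.38 (SE 0.07) on the log2 scale. Of 8 genes listed for the handover of clients from HSP70, 2 rose and 3 fell, with a median of -0.10. Among them were Hsp90b1, the HSP90 of the ER, at -0.64 ± 0.11 and Stub1, the ubiquitin ligase CHIP, at -0.39 ± 0.10. The count of 5 called there was 3 without untreated replicate 2. Of 3 J proteins that carry other names, Hscb, which acts in iron-sulfur cluster transfer, rose (0.47 ± 0.09), Sec63, the J protein of ER import, fell (-0.55 ± 0.07), and Gak, an auxilin, was not called (0.01, 95% interval -0.15 to 0.16). Over these 4 lists 28 of 35 genes were called, or 80.0%, beside 69.3% of all genes and 71.9% of protein-coding genes. The count was 24 to 29 when each library was left out. Of the 28 called, 23 kept direction and call under all alternatives.

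**Figure D5:**
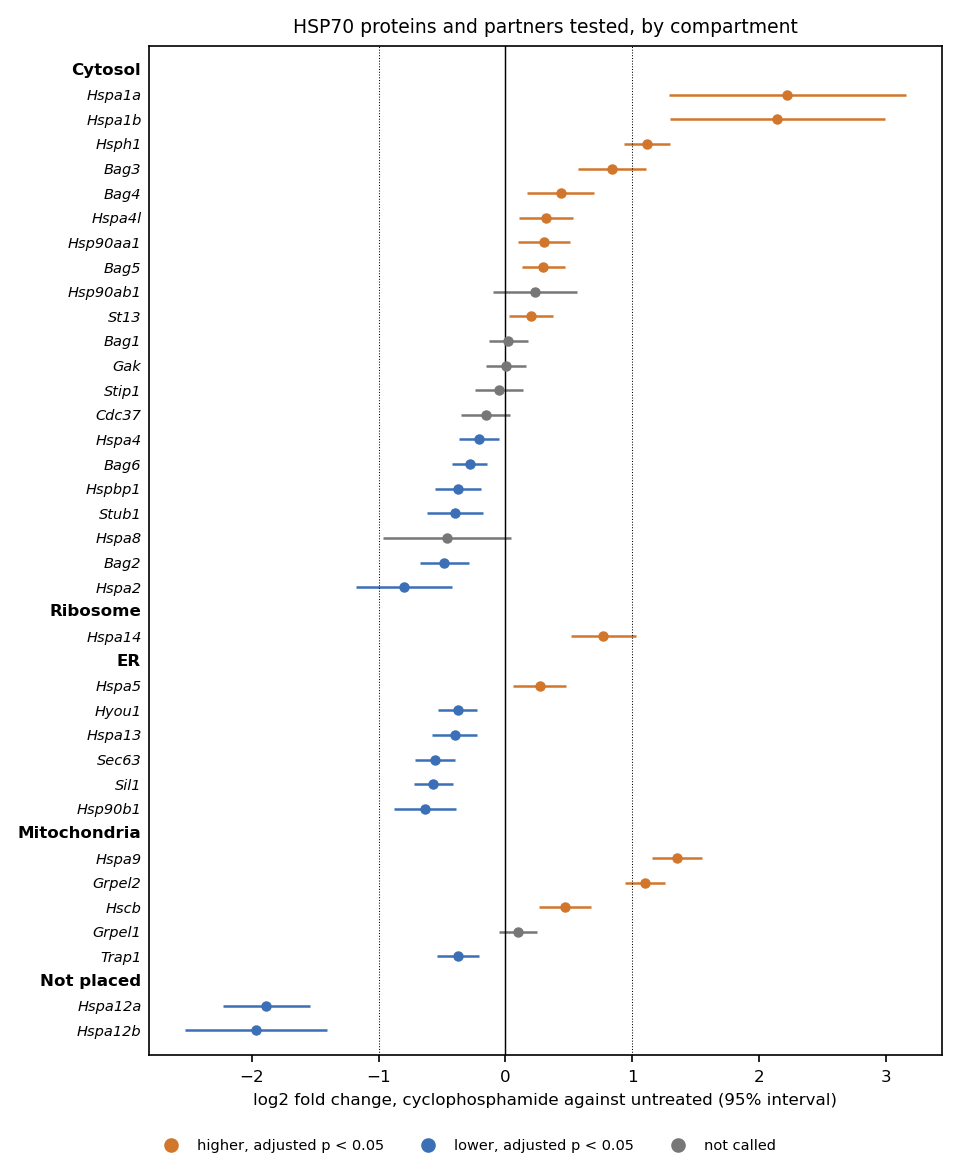
Log2 fold change with 95% interval for the 35 HSP70 proteins, exchange factors, client-handover partners and J proteins of other names that were tested. Genes are grouped by compartment and coloured by the call. In the ER Hspa5 is higher and the 5 others are lower, and in the mitochondria Hspa9, Grpel2 and Hscb are higher, Grpel1 is not called and Trap1 is lower.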

How the data were processed

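Polyadenylated RNA was sequenced from 6 libraries. CASAVA, HISAT2 (version 2.0.5) and the build GRCm39 are named, per the submitters' processing notes. For counting, the tool, strand setting and annotation are not given in the labels. Of 54495 gene IDs shared with GENCODE M21 (GRCm38), 98.3% had equal start and end, so coordinates are read as GRCm38. The deposited values are FPKM made by the authors, although the table is named as raw counts. Multiplied by gene length, 100% of them were whole multiples of 1 step per library, within 0.01 of a read, which gave the reads. The implied library size was 0.975 to 1.04 times the summed reads, a scaling whose method is not given.

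The 14751 genes that had 10 or more reads in 3 or more libraries, and 15 in all, entered limma (3.58.1, R 4.3.3). The model used log2(FPKM + 0.1) and a variance trend, with two-sided tests and Benjamini-Hochberg adjustment. Fold changes are on that scale, which understates low genes. The fit was also run on simulated data with independent libraries and few genes changed. Most genes tested were called here, so that run does not vouch for these calls. Members and lists were chosen with earlier results of these data known. Every member is accounted for. Values per library are given for members changed at least 2-fold, the largest called rise and fall in each compartment, a fixed panel of members and the 5 most abundant, and for partners a fixed panel and the called ones with the smallest p. Other genes are named in passing, and 1 partner gene is not reported here. Alternatives were the replicate block, other scalings, filters and pseudocounts, protein-coding genes only, limma-voom on the recovered reads and leaving out each library. Scaling by the upper quartile over all genes with a read and leaving out members with overlapping exons were added after seeing the data. The motifs were searched in RefSeq promoter windows (GRCm38.p6), found for 37 members.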

Additional observations from a re-analysis of the deposited data

How the results depend on the processing

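The count of 29 called members was 28 to 29 under the other settings that use the whole family, leave-one-out fits apart, and 27 to 30 when each library was left out. Without the 11 members whose exons overlap a gene with at least 10 reads, 22 members were called, 14 higher and 8 lower. Of the 29 called members 25 kept direction and call under all alternatives, and the exceptions were Dnajc8, Dnajc11, Dnajc12 and Dnajc28. With the replicate number as a block, 29 members were called and the count of all genes called was 9910, and the call on Hspa5 was lost (adjusted p = 0.082). The numbers give no sign of pairing, since deviations of same-numbered libraries correlated at -0.079, 0.009 and -0.029, and not every library correlated best with its own number. Hspa5 was also lost with no filter (adjusted p = 0.059). Signs turned for genes near 0 that were not called. With scaling by the upper quartile of the genes tested, Dnajb12 was -0.042, Gak -0.078 and Bag1 -0.060. With scaling by the upper quartile over all genes with a read, Dnajc1 was 0.023, Dnajc15 0.041 and Stip1 0.043, and 1 of the 2 members not placed was called. When libraries were left out, Dnajb12 ran from -0.0078 to 0.13, Dnajc25 from -0.014 to 0.46, Dnajc30 from -0.054 to 0.21, Gak from -0.035 to 0.06, Bag1 from -0.0083 to 0.069 and Stip1 from -0.12 to 0.015. In the same fits 1 to 2 of the members not placed, 0 to 1 of the testis members and 3 to 5 of the client-handover partners were called. The scalings put the median of all genes between -0.10 and 0.07, and the causes of these shifts were not tested. Depth limits the members under 1 FPKM.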

Other observations

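Treated replicate 1 had the highest and treated replicate 2 the lowest FPKM for 14 of the 21 cytosolic HSP70 genes and partners tested, and the reverse order was seen for 2. Among the 10 cytosolic DNAJ members the first order was seen for 4 (Dnaja2, Dnajb1, Dnajb4 and Dnajb6) and the reverse for 3. The share of all genes tested with either order was not counted. Over all genes, summed FPKM was 300505, 279748 and 277197 in treated replicates 1, 2 and 3. Dnajb1 stood at 26.4, 15.8 and 20.6 FPKM in treated replicates 1, 2 and 3, Hspa1a at 5.26, 1.43 and 3.32, Hspa1b at 17.3, 5.18 and 10.7, Bag3 at 96.2, 68.1 and 79.7 and Hspa8 at 516, 268 and 345. These 5 genes have the first order and were singled out after their values were seen. Dnaja3 (48.0, 46.9 and 47.9 FPKM) varied little across the same libraries.

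The processed pseudogene Dnajc19-ps, which the family rule leaves out, had a mean of 3.45 FPKM in untreated and 2.38 in treated libraries. It was not called (log2 fold change -0.50, 95% interval -1.05 to 0.06), and how reads divide between it and Dnajc19 was not tested.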
